A study of Caenorhabditis elegans with 12 samples.

Results

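The C. elegans nuclear hormone receptor genes named nhr were followed in dissected gonads of set-2(bn129) animals as lineages approached sterility. The members were all genes of the deposited gene table whose public name is nhr- followed by a number, which gave 283 of the 45627 rows of that table. The choice used names and no measured value. The set-2 gene encodes a histone H3 lysine 4 methyltransferase, and all groups carried the bn129 allele and grew at 25 °C. P0 animals were set-2(bn129)/qC1 heterozygotes, in which the balancer chromosome carries the intact copy of set-2. F2 fertile, F4 fertile and F4 sterile animals were their set-2(bn129) homozygous descendants. Each group had 3 RNA-seq libraries, 1 per lineage, and the gonads were taken on day 1 of adulthood. Fertile animals laid live progeny, whereas animals taken as F4 sterile showed an empty uterus without embryos. Lineages were started from 25 heterozygous animals of 1 strain, PFR541, and each library pooled gonads of many animals. There was no group with 2 intact copies of set-2, and P0 differed from the other groups in genotype, generation and the balancer at once.

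Nuclear hormone receptors are transcription factors with a zinc-finger DNA-binding domain and, in most members, a ligand-binding domain that can take up lipids, sterols or other small molecules. The nematode family is far larger than that of flies or vertebrates, and most of its members derive from an ancestor related to the vertebrate receptor HNF4. Members with known roles act in molting, fat metabolism, responses to food, pathogens and low oxygen, and development, mainly in intestine, epidermis and neurons. The receptors daf-12, sex-1, odr-7, unc-55 and fax-1 belong to the same family under other names and are treated apart.

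Libraries held between 3456068 and 10335794 counts on genes. Counts over the whole set-2 gene, scaled to CPM (counts per library total on genes, with TMM factors), were between 122 and 157 CPM in homozygous libraries, against 185 to 196 CPM in P0 libraries. Defining markers of the germ line and of oocytes were abundant in every library. The summed level of 5 germ line markers was 1803 to 1997 CPM in F4 sterile libraries, against 2796 to 3046 CPM in P0 libraries, and all 5 were lower by edgeR's quasi-likelihood test with Benjamini-Hochberg adjustment over all genes tested, at the threshold of 0.05 used throughout. The highest adjusted p on leaving out a library was 0.094 for glh-1, without the F4 sterile library of lineage 1, and 0.068 for him-3, without the P0 library of lineage 2, and gld-1, pgl-1 and htp-3 kept their calls. Of all genes tested 16.8% were lower in F4 sterile than in P0 gonads. Sperm markers summed to between 0.298 and 4.43 CPM. Among somatic markers, the intestinal regulator elt-2 had at most 10 counts in any library, whereas the 3 yolk genes vit-2, vit-5 and vit-6 carried most of the intestinal sum. The muscle regulator hlh-1 had no count in any library.

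Of the 283 nhr genes, 281 had at least 1 count in some library, and 88, or 31.1%, were detected by the rule of more than 3 counts in every library of at least 1 group. In P0 gonads 41 were detected, in F2 fertile gonads 69, in gonads of F4 fertile animals 69 and in those of F4 sterile animals 82. In all 4 groups 40 were detected. P0 also had the fewest and F4 sterile the most at equal depth. With each library thinned at random to the total of the shallowest, 38 nhr genes were detected in P0, 53 in F2 fertile, 56 in F4 fertile gonads, and 70 in those of F4 sterile animals. The share of all genes detected by the same rule in each group is not given here. These counts therefore have no matching background and do not show a trait particular to nhr genes. Detection was uneven over the chromosomes. Chromosome V holds 175 of the genes and 40 of these, or 22.9%, were detected, whereas on chromosome IV 19 of 34 and on chromosome X 12 of 25 were detected. Of 14 members annotated as pseudogenes in the WBcel235 annotation, matched by WormBase ID, only nhr-240 was detected. The 195 undetected members had a median of 10 counts summed over all 12 libraries, and nhr-52 and nhr-222 had none.

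The family's transcripts in P0 gonads came mostly from 5 genes. Levels between genes were compared per kilobase of exon, with exon lengths from WBcel235. On that scale nhr-86 had a mean of 57.4 CPM per kb in P0, nhr-49 45.3, nhr-23 40.3, nhr-274 26.3 and nhr-66 25.2, and the next member, nhr-48, had 6.25 CPM per kb. These 5 genes took 64 to 68.9% of all nhr counts in P0 libraries. Their summed level stayed between 396 and 475 CPM in all 12 libraries. The other 278 genes summed to 229 ± 21.6 CPM in P0, 422 ± 56.1 CPM in F2 fertile, 465 ± 41.3 CPM in F4 fertile and 678 ± 157 CPM in F4 sterile gonads (SD, n = 3 each). The F4 sterile libraries had 571, 858 and 603 CPM from these genes in lineages 1, 2 and 3, against 253, 211 and 224 CPM in the P0 libraries, so the 2 groups did not overlap. The whole family summed to 1.62 times as much in F4 sterile as in P0 gonads, with no test made on this sum.

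**Figure D1:**
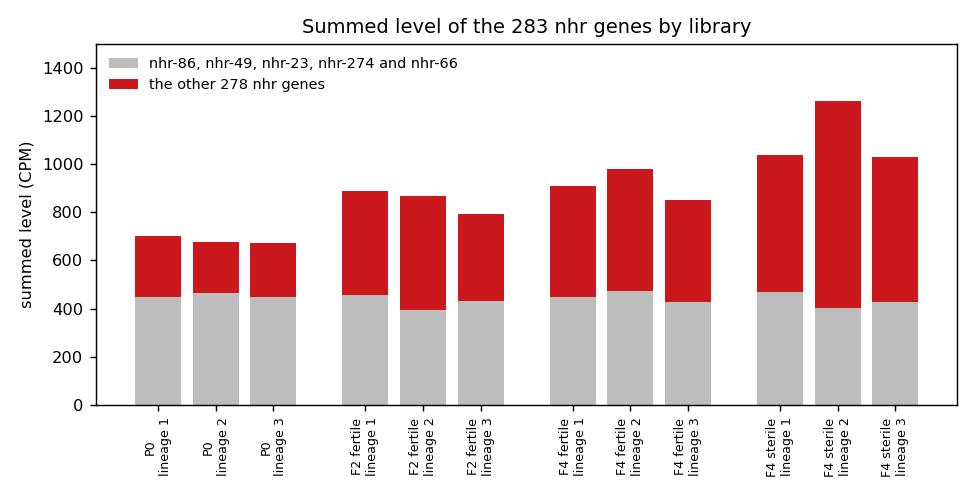
Summed level of the 283 nhr genes in each of the 12 libraries, in CPM, stacked as the 5 most abundant genes per kilobase in P0 (grey) and the other 278 (red). The grey parts lie between 396 and 475 CPM in every library, and the red parts reach 571 to 858 CPM in F4 sterile libraries, against 211 to 253 CPM in P0 libraries.

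Differences between groups were tested with edgeR on all genes that passed its expression filter, and 71 nhr genes were among the 8746 genes tested. In F4 sterile against P0 gonads, 51 of the 71 were higher and 3 were lower. Over all genes tested, 26.4% were higher and 16.8% lower. The median log2 fold change of the 71 genes was 1.47, beside 0.05 over all genes tested. In F4 fertile against P0 gonads 30 were higher and 2 lower, where 13.7% and 7.42% of all genes were called, with medians of 1.02 for the nhr genes and 0.04 for all genes. In F2 fertile against P0 gonads 13 were higher and 2 lower, where 7.6% and 1.33% of all genes were called, with medians of 0.84 and 0.04. These 3 comparisons share the P0 libraries. Every called nhr gene changed in the same direction in all 3 lineages, which selection by adjusted p on the same libraries itself favours. A gene that passes the filter only through the group where it is abundant had to differ, so these counts describe the 71 genes and not the family. Of the 41 members detected in P0 itself, 27 rose and 3 fell in F4 sterile gonads. The share over all genes detected in P0 by the same rule is not given here, so this count has no matching background. Without the expression filter 54 of the 281 members with a count were higher and 3 lower in the F4 sterile comparison, where 8.94% of the 26894 genes with a count were higher.

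**Figure D2:**
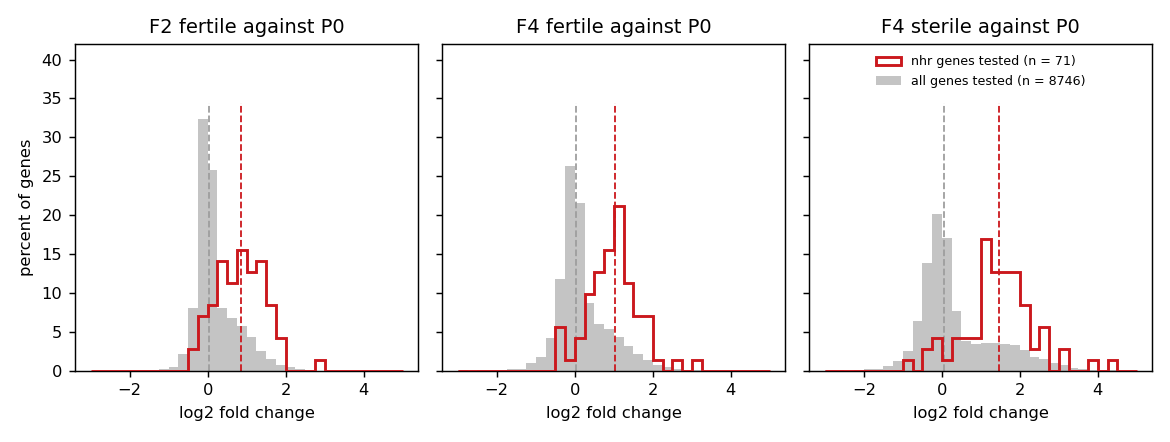
Distribution of log2 fold changes against P0 for the 71 tested nhr genes (red line) and all 8746 tested genes (grey), as percent of genes per bin of 0.25, with medians dashed. The nhr medians lie at 0.84 for F2 fertile, 1.02 for F4 fertile and 1.47 for F4 sterile gonads. The medians over all genes lie between 0.04 and 0.05.

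Among the genes that passed the filter, those with low levels were more often higher in F4 sterile gonads, and most nhr genes are low. A low gene can pass the filter through the F4 sterile group alone, so the share at low levels holds for tested genes only and partly follows from the filter. Among the 2753 tested genes with a mean below 10 CPM over the 12 libraries, 43.1% were higher in F4 sterile than in P0 gonads, and 42 of the 58 nhr genes in that range were. Among the 5993 genes at 10 CPM or more, 18.8% were higher, and 9 of the 13 nhr genes there were. Chromosome X gave a similar picture of a high background. All 11 tested X-linked nhr genes (nhr-1, nhr-3, nhr-17, nhr-25, nhr-28, nhr-32, nhr-35, nhr-40, nhr-45, nhr-48 and nhr-71) were higher in F4 sterile gonads, where 73.8% of the 971 tested X-linked genes were. Of the 60 tested autosomal nhr genes 40 were higher, where 20.5% of the 7775 autosomal genes were. By chromosome these 40 were 5 of 7 on I, 4 of 6 on II, 3 of 3 on III, 12 of 17 on IV and 16 of 27 on V.

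Libraries differed in their somatic markers. In the F4 sterile library of lineage 2 the 7 intestinal markers summed to 5683 CPM and the 5 body wall muscle markers to 161 CPM, the highest of the 12 libraries for each list. Without this library 37 nhr genes rose and 2 fell in F4 sterile relative to P0 gonads, all 37 among the 51, and the median was 1.15, where 19.9% of all genes tested were higher. In lineage 1 the intestinal sum was 1019 CPM in the F4 sterile library, against 3405 CPM in its P0 library. In lineages 1, 2 and 3, 64, 67 and 62 of the 71 nhr genes were higher in the F4 sterile than in the P0 library. The share of all genes in each single lineage is not given here, so these counts have no matching background. Over all lineages, 54.5% of all genes tested had a fitted log2 fold change above 0 in F4 sterile against P0 gonads. The intestinal and muscle lists had no called gene in any comparison with P0. Of 3 tested neuronal markers, unc-119, unc-104 and snb-1, all 3 were higher in F4 sterile gonads, where 26.4% of all genes tested were higher. The neuronal list summed to 136 to 151 CPM in F4 sterile libraries, against 94.6 to 103 CPM in P0 libraries. Without the F4 sterile library of lineage 2 the edgeR adjusted p was 0.055 for unc-104. The call of snb-1 was lost in 12 of the 18 alternatives (highest adjusted p = 0.25, without the P0 library of lineage 2), and unc-119 kept its call in every alternative. The sheath gene inx-9 was higher and inx-8 lower, with highest edgeR adjusted p on leaving out a library of 0.059 for inx-9 without the F4 sterile library of lineage 2 and 0.12 for inx-8 without the F4 sterile library of lineage 1. The part of these cell types in the nhr differences was not tested. In whole gonads, more cells of a type and more RNA per cell cannot be told apart. The libraries carried 3 different name prefixes whose meaning the labels do not state. Among the libraries of 1 prefix, 65 of the 71 nhr genes were higher in the F4 sterile than in the P0 library, with 1 library each. Among those of another prefix 64 were, with 1 F4 sterile and 2 P0 libraries. Of all genes, no more than 54.5% were higher in either prefix. The 71 include genes that can pass the filter through the F4 sterile group alone, which itself favours such counts. The remaining prefix held F4 libraries only.

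The member with the largest fitted log2 fold change was nhr-57, on chromosome V (WS220, 4131910 to 4134930), a gene known as a target of the hypoxia factor HIF-1. It had no count in any P0 library. Its counts were 15, 20 and 7 in the F2 fertile, 10, 23 and 12 in the F4 fertile and 34, 73 and 23 in the F4 sterile libraries of lineages 1, 2 and 3. Every homozygous library therefore held reads of nhr-57 and no heterozygous library did. Against a floor of 3 counts in the shallowest P0 library, which covers counting error only, its mean level of 5.96 CPM in F4 sterile gonads was at least 6.67-fold higher than in P0. The same bound was 2.6-fold for F4 fertile and 2.31-fold for F2 fertile gonads. The edgeR adjusted p was 2.1e-05 for F4 sterile, 0.0006 for F4 fertile and 0.0014 for F2 fertile against P0. Setting nhr-57 at its bound left the medians of the 71 genes as given above.

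The hypoxia pathway itself was read from 7 genes, of which 6 were tested. In F4 sterile against P0 gonads 4 were higher and none lower, where 26.4% of all genes tested were higher. In each of the F2 fertile and F4 fertile groups 2 were higher, where 7.6% and 13.7% of all genes were. The prolyl hydroxylase gene egl-9, which marks HIF-1 for degradation and is also its target, had 199, 249 and 67 counts in F4 sterile libraries, against 20, 18 and 22 in P0 libraries, with a log2 fold change of 2.38 ± 0.34 (approximate SE) and an edgeR adjusted p of 0.00013. The factor gene hif-1 had a log2 fold change of 1.18 ± 0.24 (edgeR adjusted p = 0.0016). The ubiquitin ligase component vhl-1 (2.00) and the collagen prolyl hydroxylase gene phy-2 (1.30) were also called, and phy-2 was no longer called without the F4 sterile library of lineage 2 (edgeR adjusted p = 0.2). Without the P0 library of lineage 3 that of vhl-1 was 0.051. The HIF-1 pathway genes rhy-1 and cysl-2 had log2 fold changes of -0.14 and -0.38 and were not called in F4 sterile gonads. In F2 fertile against P0 gonads cysl-2 was called higher (0.94 ± 0.24, edgeR adjusted p = 0.028, up to 0.16 on leaving out a library, without the P0 library of lineage 2), and rhy-1 had a log2 fold change of 1.18 ± 0.40 (edgeR adjusted p = 0.091).

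**Figure D3:**
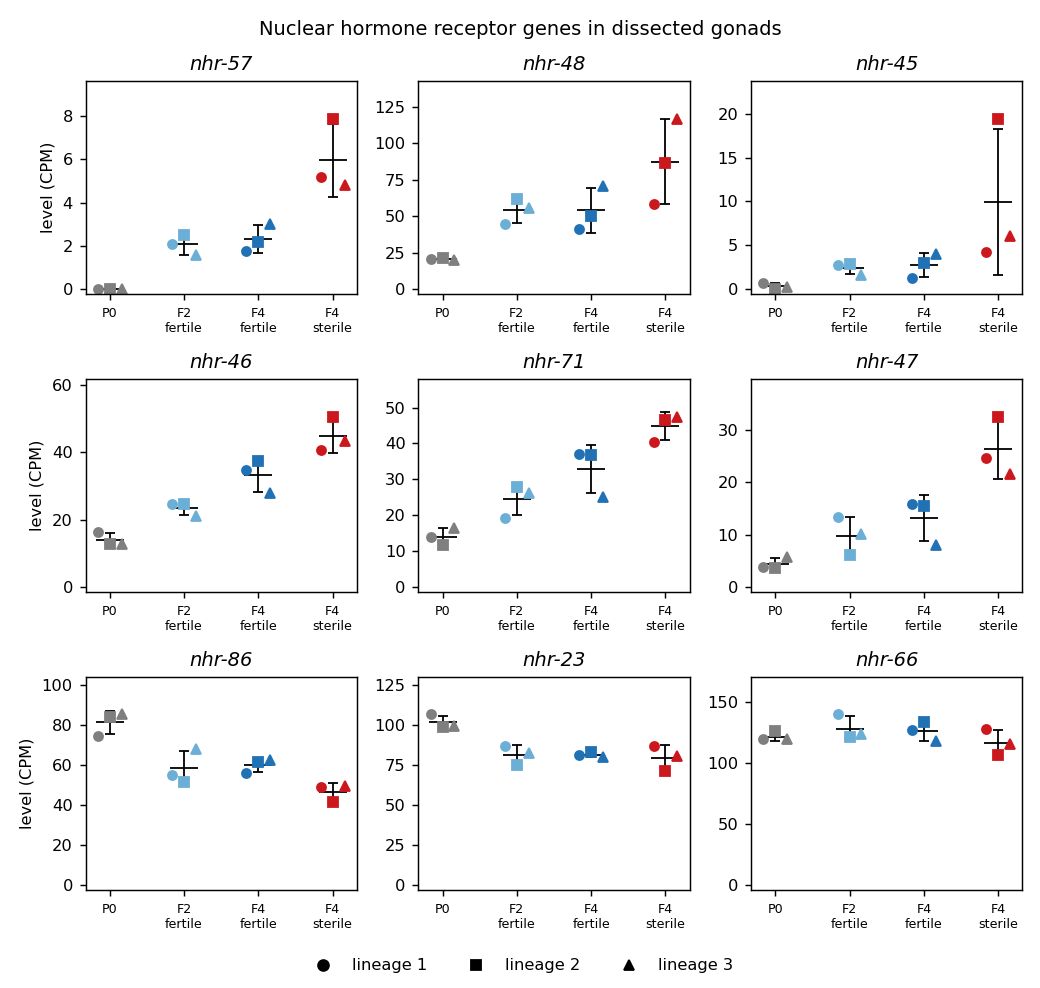
Level in CPM of 9 nhr genes in the 4 groups. Symbols are libraries by lineage, and bars show the mean and SD (n = 3). In the upper 2 rows the F4 sterile libraries lie above all P0 libraries, in the panels of nhr-86 and nhr-23 below them, and nhr-66 overlaps.

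Among receptors with orthologues outside nematodes, 6 of 9 were tested, and in F4 sterile against P0 gonads 5 were higher and 1, nhr-23, was lower. Of all genes tested 26.4% were higher and 16.8% lower. Of the 5, nhr-25 and nhr-48 are X-linked, and 73.8% of the tested X-linked genes were higher. The most abundant of the 5 was nhr-48, on chromosome X (WS220, 15708153 to 15716804), a relative of the vertebrate vitamin D and xenobiotic receptors. Its counts were 383, 797 and 561 in F4 sterile libraries, against 146, 71 and 83 in P0 libraries. On the CPM scale it had 87.2 ± 29.2 in F4 sterile and 20.5 ± 0.631 in P0 gonads (SD, n = 3 each), and 53.9 ± 8.65 and 54 ± 15.3 in F2 fertile and F4 fertile gonads. The lowest homozygous library, at 41 CPM, lay above the highest P0 library, at 21.1 CPM. Its log2 fold change was 2.07 ± 0.25 in F4 sterile, 1.38 ± 0.25 in F4 fertile and 1.38 ± 0.25 in F2 fertile against P0 (edgeR adjusted p = 3.8e-05, 0.0022 and 0.004). It kept its call in all 3 comparisons under all 18 alternatives tried.

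The other members of this group called higher were low, each at a mean below 10 CPM. Of all genes tested at that level 43.1% were higher in F4 sterile than in P0 gonads. The NR4A receptor gene nhr-6, which is required for spermatheca development, had 19, 33 and 20 counts in F4 sterile libraries, against 8, 1 and 1 in P0 libraries (log2 fold change 2.02 ± 0.40, edgeR adjusted p = 0.0014). The NR5A receptor gene nhr-25, which acts in molting and in the somatic gonad, had 13, 23 and 16 counts in F4 sterile libraries, against 4, 3 and 5 in P0 libraries (edgeR adjusted p = 0.024). Its highest levels were in F2 fertile gonads, with 31, 40 and 14 counts and a log2 fold change of 1.96 ± 0.43 against P0 (edgeR adjusted p = 0.012). The nhr-25 calls were lost in 4 and 3 of 18 alternatives, with the highest edgeR adjusted p of 0.13 for F4 sterile and 0.078 for F2 fertile gonads, both without the P0 library of lineage 1. The E75 relative nhr-85 had 6, 39 and 9 counts in F4 sterile libraries, against 4, 2 and 2 in P0 libraries, and its call was lost without the F4 sterile library of lineage 2 (edgeR adjusted p = 0.11). The NR2C relative nhr-41 had 16, 24 and 12 counts in F4 sterile libraries, against 9, 3 and 4 in P0 libraries, and its call was lost in 7 of 18 alternatives.

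The remaining 3 genes with such orthologues were not tested. The NR6A receptor gene nhr-91 had 9, 28 and 9 counts in F4 sterile libraries, against 2, 1 and 0 in P0 libraries. The sterol and xenobiotic receptor gene nhr-8 had 4, 22 and 7 counts in F4 sterile libraries, against 5, 2 and 3 in P0 libraries. The tailless relative nhr-67 had at most 6 counts in any library and was not detected.

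Of 14 receptors with known metabolic roles 11 were tested, and in F4 sterile against P0 gonads 5 were higher, 1 was lower and 5 were not called. Of all genes tested 26.4% were higher and 16.8% lower. The gene nhr-49, on chromosome I, drives fatty acid desaturation and beta-oxidation. It had 157, 144 and 144 CPM in F4 sterile libraries, against 95.6, 96.1 and 98.4 CPM in P0 libraries, and the groups did not overlap. Its difference was small in size, with a log2 fold change of 0.62 ± 0.09 in F4 sterile (edgeR adjusted p = 0.00022) and 0.40 ± 0.09 in F4 fertile gonads (edgeR adjusted p = 0.01). The F4 fertile call was lost without the P0 library of lineage 1, the P0 library of lineage 2 or the F4 fertile library of lineage 2 (edgeR adjusted p = 0.06, 0.062 and 0.065). Its partner nhr-66, which acts with nhr-49 in lipid breakdown, had 117 ± 10.5 CPM in F4 sterile and 122 ± 3.88 CPM in P0 gonads (SD, n = 3 each), and its log2 fold change was between -0.06 and 0.08 in the 3 comparisons with P0. Of the other NHR-49 partners, nhr-13 had a log2 fold change of 0.71 ± 0.28 in F4 sterile gonads (edgeR adjusted p = 0.057), and nhr-80 was not detected.

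The gene nhr-10, a regulator of propionate breakdown on chromosome III, had 118, 220 and 73 counts in F4 sterile libraries, against 33, 22 and 18 in P0 libraries. Its log2 fold change was 1.85 ± 0.28 in F4 sterile (edgeR adjusted p = 0.0002) and 1.21 ± 0.28 in F4 fertile gonads (edgeR adjusted p = 0.0088), and both calls held under all 18 alternatives. The receptor nhr-68, which acts with nhr-10, had 0, 10 and 1 counts in F4 sterile libraries, against 5, 9 and 1 in P0 libraries, and was not detected. The gene nhr-62, known from longevity under dietary restriction, had 64 counts summed over the F4 sterile libraries, against 1 over the P0 libraries. The ratio of these scaled counts was 45.6 with a counting interval of 7.9 to 1830 (exact, 95%), which leaves out the spread between lineages. Its fitted log2 fold change was 3.05 ± 0.54, or 8.29-fold (edgeR adjusted p = 0.00066). Ratios of scaled counts and fitted folds are different measures and cannot be set against each other. The gene nhr-31, known from growth of the excretory cell, had 10, 43 and 17 counts in F4 sterile libraries, against 8, 1 and 0 in P0 libraries (edgeR adjusted p = 0.0096). The genes nhr-64, nhr-76 and nhr-114 had log2 fold changes of 0.65, 1.36 and -0.24 in F4 sterile gonads and were not called. The receptor nhr-14, with a role in iron uptake, was not detected, and 36 of its 82 counts lay in the F4 sterile library of lineage 2.

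Lower members were few and came from the abundant genes. The gene nhr-86, on chromosome V (WS220, 2061110 to 2066843), an HNF4-related receptor that senses a bacterial metabolite in the intestine, had 48.8, 41.7 and 49.6 CPM in F4 sterile libraries, against 74.5, 83.9 and 85.2 CPM in P0 libraries. Its values in F2 fertile libraries were 55.1, 51.6 and 68.1 CPM, and in F4 fertile libraries 56.0, 61.7 and 62.5 CPM, so that no homozygous library reached the lowest P0 library. Its log2 fold change was -0.79 ± 0.12 in F4 sterile, -0.43 ± 0.12 in F4 fertile and -0.48 ± 0.12 in F2 fertile against P0 (edgeR adjusted p = 0.0002, 0.021 and 0.023). The gene nhr-23, on chromosome I, is the orthologue of the vertebrate ROR receptors, acts in molting and is also needed for spermatogenesis. It had 79.8 ± 8.07 CPM in F4 sterile and 102 ± 4.36 CPM in P0 gonads (SD, n = 3 each), with 81.6 ± 6.27 CPM in F2 fertile and 81.6 ± 1.53 CPM in F4 fertile gonads. Its log2 fold change was -0.35 ± 0.09 in F4 sterile, -0.32 ± 0.09 in F4 fertile and -0.32 ± 0.09 in F2 fertile gonads (edgeR adjusted p = 0.0076, 0.027 and 0.046).

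The F4 sterile calls of nhr-86 and nhr-23 held under all 18 alternatives, whereas the F2 fertile and F4 fertile calls were lost when single libraries were left out. In F2 fertile against P0 gonads the highest adjusted p, without the F2 fertile library of lineage 2, was 0.13 for nhr-86 and 0.22 for nhr-23. In F4 fertile against P0 gonads it was 0.096 for nhr-86 without the F4 fertile library of lineage 1, and 0.094 for nhr-23 without the expression filter. The gene nhr-274, on chromosome IV, had 46.8, 39.8 and 38.7 CPM in F4 sterile libraries, against 52.2, 60.7 and 46.9 CPM in P0 libraries. Its F4 sterile call was weak (log2 fold change -0.34 ± 0.13, edgeR adjusted p = 0.048) and was lost in 7 of 18 alternatives, with the highest adjusted p of 0.13 without the F4 sterile library of lineage 3.

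Among the 10 genes with the highest CPM in P0 were nhr-46 on chromosome IV and nhr-71 on chromosome X. On the CPM scale nhr-46 had 14 ± 2.11 in P0, 23.4 ± 2.03 in F2 fertile, 33.2 ± 4.91 in F4 fertile gonads, and 44.8 ± 5.11 in those of F4 sterile animals (SD, n = 3 each). Its lowest library in F2 fertile, at 21.1 CPM, lay above its highest in P0, at 16.4 CPM, and its lowest in F4 sterile, at 40.7 CPM, lay above its highest in F4 fertile, at 37.2 CPM. The log2 fold change of nhr-46 in F4 sterile against P0 gonads was 1.65 ± 0.17 (edgeR adjusted p = 1.1e-05). The levels of nhr-71 were 14 ± 2.46 CPM in P0, 24.4 ± 4.47 CPM in F2 fertile, 32.9 ± 6.69 CPM in F4 fertile and 44.9 ± 3.78 CPM in F4 sterile gonads, with a log2 fold change of 1.66 ± 0.20 in F4 sterile against P0 (edgeR adjusted p = 3.8e-05). For nhr-71 the F2 fertile and F4 fertile libraries overlapped.

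Larger changes came from genes that were almost silent in P0. The X-linked gene nhr-45 had 28, 180 and 29 counts in F4 sterile libraries, against 5, 0 and 1 in P0 libraries, with a log2 fold change of 3.90 ± 0.67 (edgeR adjusted p = 0.00051) and the library of lineage 2 far above the others. The gene nhr-132 had 20, 49 and 20 counts in F4 sterile libraries, against 0, 1 and 2 in P0 libraries, with a log2 fold change of 3.07 ± 0.55 (edgeR adjusted p = 0.00068). The gene nhr-230 had 24, 26 and 9 counts in F4 sterile libraries, against 0, 1 and 1 in P0 libraries, a ratio of scaled counts of 21 with an exact 95% counting interval of 5.57 to 178. Both were also called in F4 fertile against P0 gonads (edgeR adjusted p = 0.032 and 0.0047), and the F4 fertile call of nhr-132 was lost without the P0 library of lineage 1 (edgeR adjusted p = 0.13). The gene nhr-102 had 33, 105 and 18 counts in F4 sterile libraries, against 7, 3 and 2 in P0 libraries, and its neighbour nhr-84, which lies 322 bp away on chromosome V, had 54, 130 and 27, against 19, 6 and 13.

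Among genes with more reads, nhr-47 on chromosome V had 24.8, 32.6 and 21.7 CPM in F4 sterile libraries, against 3.92, 3.57 and 5.74 CPM in P0 libraries (log2 fold change 2.5 ± 0.34, edgeR adjusted p = 0.0001). The genes nhr-1 on chromosome X and nhr-20 on chromosome III, which were among the 10 with the highest CPM in P0, had log2 fold changes of 1.15 ± 0.22 and 1.57 ± 0.27 against P0 in F4 sterile libraries (edgeR adjusted p = 0.0012 and 0.00056). For the 50 higher members with any count in P0 the fitted fold in F4 sterile against P0 gonads lay between 1.53 for nhr-49 and 14.9 for nhr-45, with a median of 3.35. Of these 50 genes 49 were at least 2-fold and 15 at least 4-fold higher.

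Other members rose in F4 sterile gonads at lower counts. The X-linked gene nhr-40, needed for muscle development in the embryo, had 72, 131 and 67 counts in F4 sterile libraries, against 50, 8 and 10 in P0 libraries, and the P0 library of lineage 1 stood above the other P0 libraries. The X-linked genes nhr-3 and nhr-35 had 36, 135 and 22 counts and 38, 72 and 32 counts in F4 sterile libraries, against 8, 5 and 5 and 12, 4 and 7 in P0 libraries. The gene nhr-138 on chromosome IV had 72, 125 and 64 counts in F4 sterile libraries, against 21, 11 and 15 in P0 libraries (log2 fold change 1.86 ± 0.33, edgeR adjusted p = 0.00059), and it was already at 86, 93 and 30 counts in F2 fertile libraries. For all 4 genes the F4 sterile call held under all 18 alternatives.

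On chromosome V, nhr-65 was at 12.1, 12.3 and 5.0 CPM in F4 sterile libraries, against 3.22, 1.78 and 1.44 CPM in P0 libraries. On the same chromosome nhr-95 had 35, 48 and 20 counts in F4 sterile libraries, against 9, 4 and 6 in P0 libraries. On chromosome II, nhr-19 had 31, 67 and 22 counts in F4 sterile libraries, against 10, 2 and 2 in P0 libraries. On chromosome I, nhr-69 had 34, 64 and 23 counts in F4 sterile libraries, against 8, 5 and 2 in P0 libraries. Each of these 4 genes had a higher CPM in every F4 sterile library than in any P0 library. They were named as called on the same libraries, which itself favours such separation, and the share over all genes is not given here. The gene nhr-11 on chromosome IV had 4, 3 and 5 counts in P0, 10, 4 and 2 in F2 fertile, 18, 31 and 3 in F4 fertile and 28, 66 and 11 in F4 sterile libraries. It was called in F4 sterile against P0 gonads (edgeR adjusted p = 0.0071) and not in F4 fertile or F2 fertile gonads, and the difference of F4 sterile from F4 fertile gonads did not pass the test (edgeR adjusted p = 0.34). The gene nhr-161 on chromosome V was called in all 3 comparisons but had 17, 11 and 9 counts in F4 sterile libraries, against 4, 1 and 2 in P0 libraries, and each of its calls was lost in at least 5 alternatives. The gene nhr-7 had 11, 53 and 12 counts in F4 sterile libraries, against 1, 3 and 0 in P0 libraries, and its call was lost without the P0 library of lineage 1 or 3 (highest edgeR adjusted p = 0.076), and it could not be tested without the F4 sterile library of lineage 2, which held 53 of its counts.

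In F2 fertile against P0 gonads the higher members were nhr-25, nhr-35, nhr-40, nhr-46, nhr-48, nhr-56, nhr-57, nhr-62, nhr-71, nhr-104, nhr-138, nhr-161 and nhr-230. All 13 of these were also called in F4 sterile gonads, which is 13 of 51 there, and 10 of the 13 were called in F4 fertile gonads, which is 10 of 30 there. Of the 30 called in F4 fertile gonads 29 were called in F4 sterile gonads, the exception being nhr-12. The comparisons share the P0 libraries, which itself favours such overlap. The overlap over all genes called is not given here, so these counts have no matching background. The counts of calls in fertile gonads depended on single libraries. In F2 fertile gonads 13 fell to 5, 3 and 4 without the P0 library of lineage 1, 2 or 3, to 7 and 4 without the F2 fertile library of lineage 1 or 2, and to 8 without the F4 fertile library of lineage 3. In F4 fertile gonads 30 fell to 15, 13 and 17 without the P0 library of lineage 1, 2 or 3, and to 14 without the F4 fertile library of lineage 2. The 2 lower members of each fertile comparison fell to 0 or 1 in the same way. The genes whose call held under all 18 alternatives were nhr-48 in F2 fertile gonads and nhr-10, nhr-46, nhr-47, nhr-48, nhr-65, nhr-71, nhr-84, nhr-102 and nhr-138 in F4 fertile gonads, and 33 of the 54 in F4 sterile gonads. With only the 6 libraries compared, nhr-57 did not pass the filter for the fertile groups, and it kept its call in the other 17 alternatives.

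**Figure D4:**
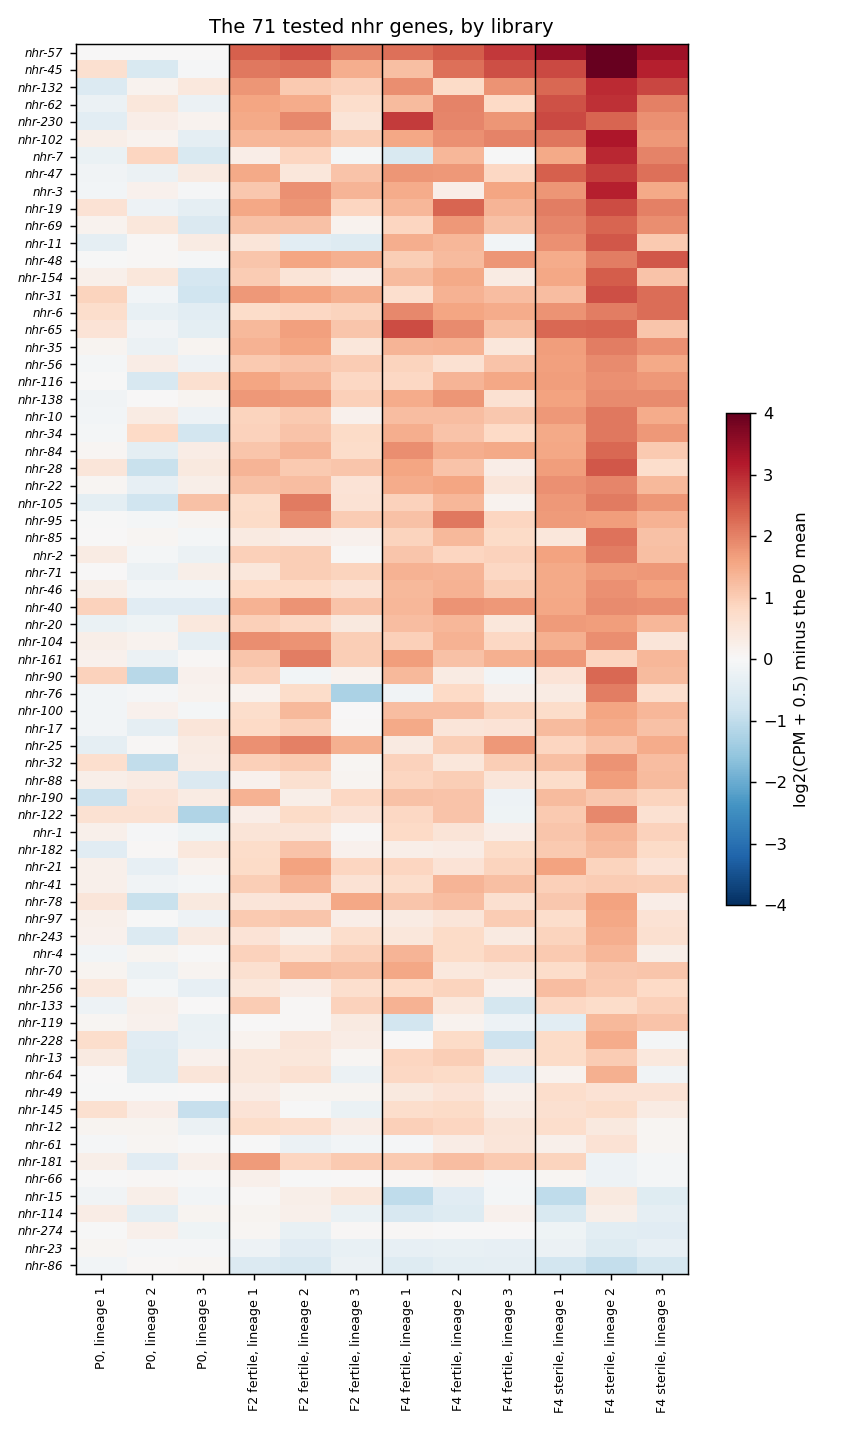
The 71 tested nhr genes in the 12 libraries, as log2(CPM + 0.5) minus the mean of the 3 P0 libraries, ordered by the log2 fold change in F4 sterile against P0 gonads. Red marks levels above P0, the upper rows deepen in F4 sterile libraries with nhr-57 and nhr-45 at the top, and nhr-86, nhr-23 and nhr-274 stand at the foot.

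Between F4 sterile and F4 fertile gonads no nhr gene passed the threshold by edgeR, where 2.85% of all genes were higher and 0.434% lower. Counting unadjusted p-values of edgeR under 0.05, there were 16 higher and 3 lower members of the 71. Over all genes tested, 14.3% were higher and 6.27% lower by that count. The median log2 fold change of the 71 genes was 0.44, beside 0.02 over all genes. In lineages 1, 2 and 3, 50, 60 and 50 of the 71 were higher in the F4 sterile library. Of all genes 54.9%, 49.8% and 51.9% were. The nearest to the threshold was nhr-57 (log2 fold change 1.28 ± 0.35, edgeR adjusted p = 0.065), followed by nhr-45 (1.77 ± 0.56, edgeR adjusted p = 0.092) and nhr-47 (0.97 ± 0.31, edgeR adjusted p = 0.093). With the lineage as a block, nhr-7 and nhr-48 were higher (edgeR adjusted p = 0.029 and 0.033), and DESeq2 called nhr-45 and nhr-47 (adjusted p = 0.043 and 0.041). With the library name prefix as a covariate, 8 members rose and 1 fell. Leaving out the F4 sterile library of lineage 1 gave 4 that rose and 2 that fell. Between F4 fertile and F2 fertile gonads no nhr gene was called, where 0.0114% of all genes were higher and 0.0% lower. Counting unadjusted p-values of edgeR under 0.05, there were 5 higher members and none lower, where 3.5% of all genes were higher and 5.74% lower. DESeq2 also called no nhr gene, and the median was 0.18, beside 0.00 over all genes.

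Of the 71 tested genes 52 were higher in at least 1 comparison with P0, 3 were lower and 16 were never called. The 16 were nhr-13, nhr-15, nhr-61, nhr-64, nhr-66, nhr-76, nhr-78, nhr-90, nhr-114, nhr-119, nhr-122, nhr-133, nhr-145, nhr-181, nhr-190 and nhr-228. A further 17 genes were detected but had too few counts to be tested, with 36 to 124 counts over the 12 libraries, among them nhr-87 with 10, 46 and 14 counts in F4 sterile libraries, against 6, 0 and 6 in P0 libraries. The genes nhr-117 and nhr-183, with 59 and 55 counts in all, had 27 and 36 of these in the F4 sterile library of lineage 2.

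Position in the genome gave little to compare. Of all 283 members 172 lie within 10 kb of another nhr gene in WS220, in 125 neighbouring pairs of which 99 are on chromosome V. In only 5 of these pairs were both genes tested. Both were higher in F4 sterile gonads in the pairs nhr-49 and nhr-69, nhr-138 and nhr-100, nhr-102 and nhr-84, and nhr-65 and nhr-230, and in the pair nhr-95 and nhr-145 only nhr-95 was called. The genes nhr-138 and nhr-100 overlap on the same strand, so their reads cannot be fully separated. Strand use in the counting is not given in the sources used here. Reads assigned to several genes were left out, and how far overlaps changed the counts of members was not tested. Several members overlap an expressed gene on the opposite strand. Among these were nhr-61, with 490 counts in all beside 23920 for W01D2.1, and nhr-4, with 348 beside 2551 for F32B6.3. Others were nhr-19, with 283 beside 999 for E02H1.8, and nhr-47, with 1106 beside 366 for C24G6.6. The list also held nhr-66, with 9262 beside 2319 for T09A12.5, and nhr-86, with 4437 beside 173 for Y40B10A.2. For nhr-114 there were 233 counts beside 5945 for Y45G5AM.9.

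Genes that act with the receptors were read from lists. Of the receptors with other names, sex-1 and daf-12, both X-linked, were tested. Both were higher in F4 sterile than in P0 gonads, where 73.8% of the tested X-linked genes were higher. The X-signal gene sex-1, which acts in sex determination, had 125, 217 and 66 counts in F4 sterile libraries, against 47, 12 and 25 in P0 libraries (log2 fold change 1.73 ± 0.27, edgeR adjusted p = 0.00026). The dafachronic acid receptor gene daf-12 had 16, 94 and 20 counts in F4 sterile libraries, against 13, 4 and 4 in P0 libraries, and its call was lost without the F4 sterile library of lineage 2 (edgeR adjusted p = 0.1). The other 3 had at most 5 counts in any library. Of 7 dafachronic acid and sterol genes 3 passed the filter, each at a mean below 10 CPM, and all 3 were higher in F4 sterile gonads, where 43.1% of all genes tested at that level were higher. They were the methyltransferase strm-1 (1.54) and the sterol transporters ncr-1 (2.60) and ncr-2 (1.57, lost without the F4 sterile library of lineage 2, edgeR adjusted p = 0.19). Without the P0 library of lineage 2 the edgeR adjusted p of strm-1 was 0.056.

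Of 4 coregulators, the corepressor genes din-1, a partner of daf-12, and gei-8, the worm NCoR relative, were higher in all 3 comparisons with P0. Of all genes tested 7.6%, 13.7% and 26.4% were higher in F2 fertile, F4 fertile and F4 sterile gonads. The F2 fertile call of din-1 was lost without the P0 library of lineage 2 or 3 or the F2 fertile library of lineage 2 (edgeR adjusted p = 0.095, 0.076 and 0.057). The gene gei-8 had 133 ± 19.1 CPM in F4 sterile and 31.9 ± 3.05 CPM in P0 gonads (SD, n = 3 each, log2 fold change 2.05 ± 0.13, edgeR adjusted p = 4.2e-07). The gene din-1 had 247 ± 73.0 CPM in F4 sterile and 57.4 ± 11.8 CPM in P0 gonads (log2 fold change 2.09 ± 0.20, edgeR adjusted p = 5.9e-06). Both also rose in F4 sterile relative to F4 fertile gonads (edgeR adjusted p = 0.025 each), a call lost without the F4 sterile library of lineage 2 (edgeR adjusted p = 0.099 for din-1 and 0.14 for gei-8). The coactivator genes mdt-15, a Mediator subunit that works with NHR-49, and cbp-1 had log2 fold changes of 0.04 and 0.05 in F4 sterile against P0 gonads. Of 8 NHR-49 target genes 4 were tested, and only the glyoxylate cycle gene icl-1, listed as gei-7 in the deposited table, was called (1.65, edgeR adjusted p = 0.046), a call lost in 10 of the 18 alternatives, among them the lineage block (edgeR adjusted p = 0.062) and leaving out the F4 sterile library of lineage 2 (edgeR adjusted p = 0.38). Of 5 propionate breakdown genes 4 were tested, and hach-1 alone was called, with a log2 fold change of -0.45 ± 0.11 (edgeR adjusted p = 0.0043).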

How the data were processed

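RNA was sequenced from dissected gonads in 12 libraries, 3 per group. The authors aligned reads with TopHat2 to the WS220 transcriptome, kept unique reads, removed ribosomal reads and deposited HTSeq counts per gene. They also deposited a table of these counts scaled by DESeq2 size factors, a normalized signal, whose gene names and coordinates were used here. Its columns of fold changes and p-values were not used, and no column of sample values was left without a sample. Reads assigned to no gene (8.23 to 14.4%) or to several (1.76 to 2.24%) were left out. Tool versions and strand use are not given in the sources used here.

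Counts were tested with edgeR 4.0.16 (TMM, filterByExpr, quasi-likelihood F test, all 12 libraries, no covariate as in the study) and adjusted by Benjamini-Hochberg over the 8746 genes tested, threshold 0.05. Standard errors are approximate and were taken as the absolute log2 fold change over the root of the F statistic. The script was tested on simulated data. The replicate number was read as the lineage: the labels place 1 library of each group in each lineage. Deviations of libraries of 1 lineage correlated at 0.0953 on average over 18 pairs (over 0.1 in 7), against -0.0477 between lineages. P-values measure the spread between the libraries of a group, which differ in lineage and, in every group, also in name prefix. The common dispersion, edgeR's shared estimate of this spread, was 0.0314 in the fit used. It was 0.0207 with a lineage block and 0.0116 with the prefix as covariate. Named genes were up to 15 called members per comparison with the same sign in all 3 lineages, the 10 members with the highest CPM in P0, 2 lists of receptors with known orthologues or metabolic roles, and every lower member. List genes were matched by WormBase ID, and a row of the deposited table with the public name icl-1 that is another gene was not used. Members and lists were chosen with earlier results of these data known. Alternatives were RLE size factors, no expression filter (at least 1 count), a lineage block, the library name prefix as covariate, only the 6 libraries compared, DESeq2 1.42.0, leaving out each library, and other detection rules.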

Additional observations from a re-analysis of the deposited data

How the results depend on the processing

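The 78 fold changes of named members that passed the test kept their direction under all alternatives in which the gene could be fitted. Calls were lost most in the fertile groups. Leaving out single libraries gave 3 to 18 higher and 0 to 2 lower members in F2 fertile against P0 gonads, 13 to 33 higher and 0 to 2 lower in F4 fertile against P0 gonads, 37 to 55 higher and 2 to 3 lower in F4 sterile against P0 gonads, and 0 to 4 higher and 0 to 2 lower in F4 sterile against F4 fertile gonads. Without the expression filter 1 member was lower in F2 fertile and 1 in F4 fertile gonads against P0, and 6 were higher in F4 sterile against F4 fertile gonads. The lineage block gave 15, 32 and 52 higher members in F2 fertile, F4 fertile and F4 sterile against P0 gonads and 2 in F4 sterile against F4 fertile gonads, and it changed no other count by more than 1.5 times. With the library name prefix as covariate 8 were higher and 1 lower in F4 sterile against F4 fertile gonads, and DESeq2 called 2 higher there. The cause of these differences was not tested. Detection depended on its rule, with 281 members at 1 count or more in any library and 57 at more than 10 counts in every library of a group. The 17 detected members with too few counts to be tested could not be compared at this depth.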
